A study of Mus musculus with 4 samples.

Results

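Genes that are known to answer a rise in cyclic AMP were examined in group 2 innate lymphoid cells (ILC2) of the mouse pancreas. The 9 genes were chosen by symbol: the nuclear receptors Nr4a1, Nr4a2 and Nr4a3, the transcription factor gene Crem, the kinase gene Sik1, and the phosphodiesterase genes Pde3b, Pde4a, Pde4b and Pde4d. All 9 had a row among the 11352 gene rows of plate 1, and 5 of them (Nr4a1, Crem, Sik1, Pde3b and Pde4b) were detected in at least 10% of the cells of that plate, as were 3188 genes in all. The cells came from C57BL6J mice, in which the fluorescent protein KIKR turns from green to red under violet light, and were sorted 1 to a well into 4 plates for SORT-seq, which counts polyadenylated RNA from its 3' end. Each plate held photoconverted (KIKR-Red) cells, non-photoconverted (KIKR-Green) cells and empty wells. On plate 1 these were 12, 151 and 221 wells, of which 8 photoconverted and 98 non-photoconverted cells passed a filter of at least 500 genes and under 25% mitochondrial reads. Feeding state, age and animal of origin are not given for any cell, so fed and fasted mice were not compared.

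Many hormones, prostaglandins and neurotransmitters act on receptors that couple through the G protein Gs to adenylyl cyclase, which makes cyclic AMP. In ILC2, some signals of this kind are known to restrain proliferation or cytokine output, though not all act alike. Cyclic AMP frees protein kinase A, which phosphorylates the transcription factor CREB at its sites in DNA, the cAMP response elements. Nr4a1, Nr4a2, Nr4a3, Crem and Sik1 are known targets of CREB that rise within a short time of stimulation, and Crem and Sik1 in turn dampen the response. Phosphodiesterases break cyclic AMP down. Several of these genes, Nr4a1 above all, are also immediate early genes that answer other stimuli, among them antigen receptor and growth factor signals.

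The promoters of the 3 Nr4a genes are shown because they carry the short core of the cAMP response element, TGACG, several times each. The core was searched for on both strands in the 250 bases before each start site in the RefSeq promoter table (build GRCm38.p6), where the full palindrome TGACGTCA was counted as 1 site. Capitals mark the core, written TGACG or, where it lies on the other strand, CGTCA. The first line is chr15:101266596-101266845 on the plus strand, the second is chr2:57124004-57124253 on the minus strand, and the third is chr4:48045055-48045152 on the plus strand, which ends where the annotated first exon begins.
Nr4a1: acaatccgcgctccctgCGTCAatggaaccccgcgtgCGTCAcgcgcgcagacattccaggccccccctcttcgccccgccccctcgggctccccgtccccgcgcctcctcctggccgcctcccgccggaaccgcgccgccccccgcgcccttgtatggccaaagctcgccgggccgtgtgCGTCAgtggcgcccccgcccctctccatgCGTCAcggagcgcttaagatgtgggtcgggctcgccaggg
Nr4a2: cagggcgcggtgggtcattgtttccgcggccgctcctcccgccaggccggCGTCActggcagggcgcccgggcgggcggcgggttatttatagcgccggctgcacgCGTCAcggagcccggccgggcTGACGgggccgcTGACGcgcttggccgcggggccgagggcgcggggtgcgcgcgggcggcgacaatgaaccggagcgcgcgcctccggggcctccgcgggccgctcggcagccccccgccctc
Nr4a3: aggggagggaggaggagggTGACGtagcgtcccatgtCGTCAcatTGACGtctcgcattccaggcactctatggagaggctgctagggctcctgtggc
Each of the 3 windows of 250 bases held 4 cores (for Nr4a3, 3 of them lie in the stretch printed). In Nr4a1 they began at positions -233, -213, -69 and -40 from the start site. Of the 32851 windows in the table, 17.8% held at least 1 core and 2.74% at least 2, and 16 windows held 4 or more, the 3 Nr4a genes among them. The full palindrome stood in 1.55% of windows and in none of the 11 windows of the 6 genes that the table lists (Nr4a1, Nr4a2, Nr4a3, Pde4a, Pde4b and Pde4d). Of the phosphodiesterase windows, 1 of 3 for Pde4a and 1 of 4 for Pde4b held a single core, and the window of Pde4d held none. A match describes the letters only, not a bound site.

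Gene names were usable for plate 1 alone, because the rows named as mitochondrial genes held 5.63% of reads there and 0.0110% to 0.0531% on plates 2 to 4. The rows named as spike-in RNAs held 43.2% on plate 1, 0.113% on plate 2, 44.1% on plate 3 and 21.7% on plate 4. All values below therefore come from 1 plate, which is 1 sample, and are given with no p-value. Plate 1 held 52614294 reads. Photoconverted cells were deeper, with a median of 2748.5 genes (range 938 to 5129) and 540662 gene reads, against 1637 genes (502 to 4480) and 187689.5 gene reads in non-photoconverted cells and 92 genes in empty wells. A gene was called detected at 16 reads or more, since wells without a cell often held a few reads. Each photoconverted cell was also set beside the 5 non-photoconverted cells nearest to it in number of genes (29 distinct cells, median 2718.5 genes), called depth-matched here. Intervals are exact 95% binomial (Clopper-Pearson) intervals. They cover the counting of cells alone, since PCR copies are not independent molecules and the cells share a plate. At least 3 of 14 ILC2 markers were detected in 8 of 8 photoconverted and 82 of 98 non-photoconverted cells, led by Gata3, Il1rl1 and Areg. Of 12 ILC2 markers detected in at least 10% of cells, 4 (Il5, Arg1, Ptpn13 and Hs3st1) were 20 percentage points or more higher in photoconverted than in depth-matched cells. Another 3 were lower: Il7r (4 of 8 against 87.5%), Icos (4 of 8 against 70%) and Il17rb (1 of 8 against 57.5%). Among all genes 18.7% were higher and 9.94% lower by as much. At least 3 of the 5 T cell markers with a row were detected in 0 and 2 cells, and Cd3e in none. Of the other T cell markers, Lat was detected in 3 photoconverted and 39 non-photoconverted cells, Cd3g in 2 and 9, Cd3d in 1 and 2, and Cd8a in 0 and 1. Of the ILC3 markers, Ltb was detected in 4 of 8 photoconverted, 85% of depth-matched and 46 of 98 non-photoconverted cells, and Il23r in none. Of the 3 NK cell markers, Nkg7 was detected in 0 and 4 cells, Gzmb in 0 and 2, and Prf1 in none. The other lists had 2 rows (myeloid, acinar), 1 row (B cell, mast cell, endothelial or stromal, endocrine) or none (erythroid), so they check little. Of these, Cst3 was detected in 6 of 8 photoconverted and 40% of depth-matched cells, and Kit in 5 of 8 and 32.5%. Their part in the differences between colours was not tested.

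Of the Nr4a family, Nr4a1 was found in most cells and its relatives in few. Nr4a1 (chromosome 15, 101254269 to 101274795, mm10), an orphan nuclear receptor also known as Nur77, had 477, 103, 1824, 6460, 184, 1920, 5864 and 223 reads in photoconverted cells 1 to 8. In the 98 non-photoconverted cells it had 0 reads at the lowest, a median of 321 and 5253 at the highest. In these reads, which are not scaled for depth, photoconverted cells 4 and 7 lay above that highest value, and cells 2, 5 and 8 lay below the median. Photoconverted cells had it in 8 of 8 (63.1 to 100%), against 92.5% of depth-matched cells and 77.6% of all non-photoconverted cells (76 cells, 68.0 to 85.4%). Its level, in CPM (reads scaled to the total gene reads of the cell), averaged 2769 in photoconverted, 3475 in depth-matched and 2954 in all non-photoconverted cells. The ranges were 264 to 5587 in photoconverted and 0 to 21178 in non-photoconverted cells. The ranges overlap over the whole span of the photoconverted cells. Cell 8, below the median in reads, had 3944 CPM, above the non-photoconverted median of 1970 CPM. By mean CPM in non-photoconverted cells Nr4a1 ranked 42nd of all genes.

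Nr4a1 was also seen in many empty wells. At least 1 read was present in 60 of 221 (27.1%), whereas 16 or more were present in 3 (1.36%, 0.281 to 3.92%), with at most 168 reads. Crem had at least 1 read in 7 empty wells, Pde4b in 5, Sik1 and Pde3b in 4 each and Pde4d in 1. None of these reached 16 reads in an empty well, an interval that reaches up to 1.66%, and the highest was 4 reads. Of the 22 non-photoconverted cells called without Nr4a1, 15 held 1 to 15 reads of it and 7 held none, so for this gene a few reads were common both in cells and in wells with no cell.

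**Figure D1:**
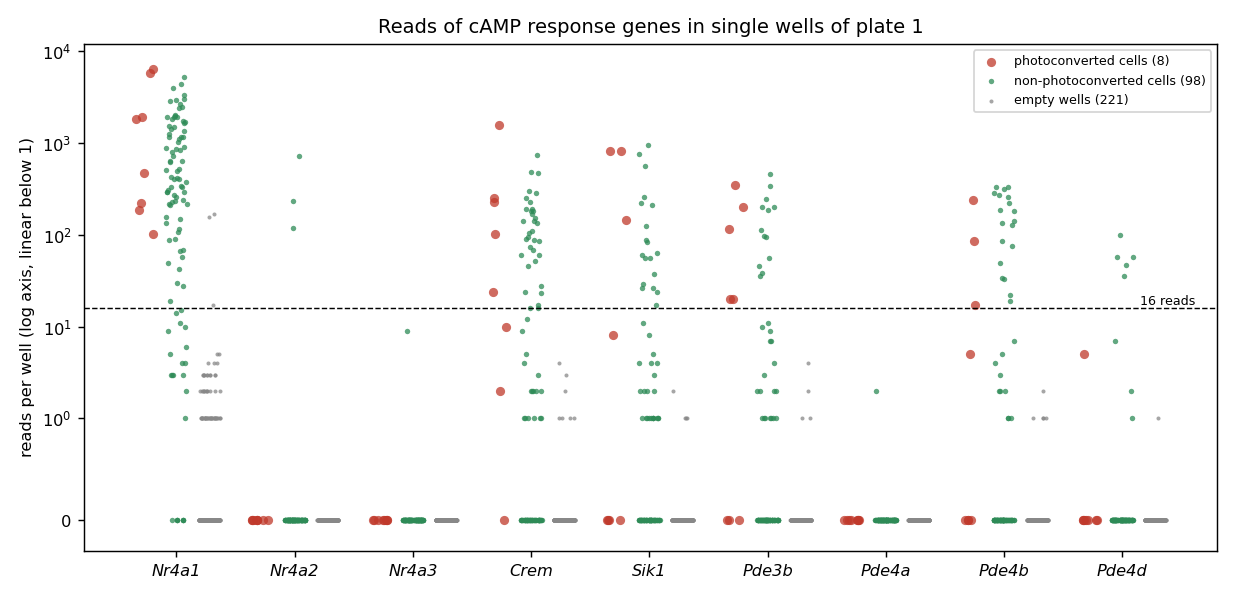
Reads per well on a log axis (linear below 1) of the 9 genes in photoconverted cells (red, 8), non-photoconverted cells (green, 98) and empty wells (grey, 221) of plate 1. Nr4a1 reaches 6460 reads and lies above the dashed line at 16 reads in most cells, while Nr4a2, Nr4a3 and Pde4a stay at 0 in every photoconverted cell.

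Its relatives were rare. Nr4a2 (Nurr1, chromosome 2, 57106830 to 57124003) had 0 reads in all 8 photoconverted cells, a count whose interval reaches up to 36.9%. It was detected in 3 of 98 non-photoconverted cells (3.06%, 0.636 to 8.69%), with 119, 236 and 722 reads, and had no read in the other 95 or in any empty well. Its reads were thus either 0 or far above the limit of 16. Since PCR copies are not told apart from molecules, this does not show that the gene was on or off. All 3 cells with it also had Nr4a1 (1648, 1170 and 4360 reads), which 77.6% of all non-photoconverted cells had. The depth-matched share of Nr4a2 was 10%. Nr4a3 (Nor1, chromosome 4, 48045153 to 48086447) had 0 reads in the photoconverted cells. It was detected in 0 of 98 non-photoconverted cells, an interval that reaches up to 3.69%, with 9 reads in 1 of them as its only signal. The 3 genes differed in detection, while each promoter window held 4 cores.

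Crem and Sik1, both targets of CREB that act back on the pathway, each reached 16 reads in a minority of non-photoconverted cells. At least 1 read of Crem was present in 51.0% of these cells, and of Sik1 in 41.8%. Crem (chromosome 18) encodes the cAMP response element modulator, and its internal promoter gives the repressor ICER, which 3' end reads do not tell apart from the longer forms. It had 102, 10, 226, 250, 2, 24, 1573 and 0 reads in photoconverted cells 1 to 8, against 0 to 738 reads (median 1) in non-photoconverted cells. Cell 7 alone, with 1573 reads, lay above all non-photoconverted cells in reads, which are not scaled for depth. In CPM it lay within their range, at 1499 against 0 to 4381. Photoconverted cells had Crem in 5 of 8 (24.5 to 91.5%), against 55% of depth-matched cells and 34.7% of all non-photoconverted cells (25.4 to 45.0%). Its mean was 286 CPM in photoconverted and 215 CPM in non-photoconverted cells, a log2 ratio of 0.39 after adding 10 CPM. This ratio turned to -0.87 without photoconverted cell 7. Against the depth-matched mean of 213 CPM the log2 ratio was 0.41.

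Sik1 (chromosome 17, 31844250 to 31855804) encodes salt-inducible kinase 1, which holds back the CREB coactivators of the Crtc family. It had 0, 0, 8, 809, 0, 820, 144 and 0 reads in photoconverted cells 1 to 8, against 0 to 952 reads (median 0) in non-photoconverted cells. The 3 photoconverted cells with it thus lay within the range of the others. Its share was 3 of 8 (8.52 to 75.5%), 25% in depth-matched cells and 19.4% in all non-photoconverted cells (12.1 to 28.6%). The mean was 280 CPM in photoconverted and 153 CPM in non-photoconverted cells, a log2 ratio of 0.83, which was -0.69 without photoconverted cell 6. Against the depth-matched mean of 225 CPM the log2 ratio was 0.30.

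Of the phosphodiesterases, Pde4b and Pde3b were detected in a minority of cells, Pde4d in few and Pde4a in none. Pde4b (chromosome 4, 102087543 to 102607259), a cAMP-specific enzyme of leukocytes, had 17, 0, 237, 85, 0, 5, 0 and 0 reads in photoconverted cells 1 to 8, against 0 to 335 reads (median 0) in non-photoconverted cells. Photoconverted cells had it in 3 of 8 (8.52 to 75.5%), against 37.5% of depth-matched cells and 19.4% of all non-photoconverted cells (12.1 to 28.6%). The depth-matched difference was 0 percentage points. Its mean was 63.0 CPM in photoconverted, 160 CPM in depth-matched and 97.0 CPM in all non-photoconverted cells. The log2 ratio to all non-photoconverted cells was -0.55, and -2.24 without photoconverted cell 3.

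Pde3b (chromosome 7, 114415281 to 114539251), a phosphodiesterase that cyclic GMP inhibits, had 20, 20, 0, 350, 0, 117, 201 and 0 reads in photoconverted cells 1 to 8, against 0 to 454 reads (median 0) in non-photoconverted cells. Photoconverted cells had it in 5 of 8 (24.5 to 91.5%), against 20% of depth-matched cells and 13.3% of all non-photoconverted cells (7.26 to 21.6%). The depth-matched difference of 42.5 percentage points was the widest among the 9 genes. It rests in part on 2 cells that held 20 reads each, just above the limit of 16. At 64 reads the difference was 27.5 points and at 1 read 22.5 points. The mean level was 89.1 CPM in photoconverted, 57.8 CPM in depth-matched and 101 CPM in all non-photoconverted cells, so its direction depends on the cells it is set against.

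Pde4d (chromosome 13, 108449948 to 109953461) reached 16 reads in no photoconverted cell (0 of 8), with 5 reads in 1 of them. It did so in 5 of 98 non-photoconverted cells (5.10%, 1.68 to 11.5%), with at most 100 reads. Pde4a (chromosome 9, 21165714 to 21213248) had 0 reads in photoconverted cells and at most 2 reads in a non-photoconverted cell. Among 9 other phosphodiesterase genes with a row, Pde7a was detected in 2 photoconverted and 28 non-photoconverted cells (28.6%), Pde6d in 2 and 5, and Pde12 in 0 and 3.

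**Figure D2:**
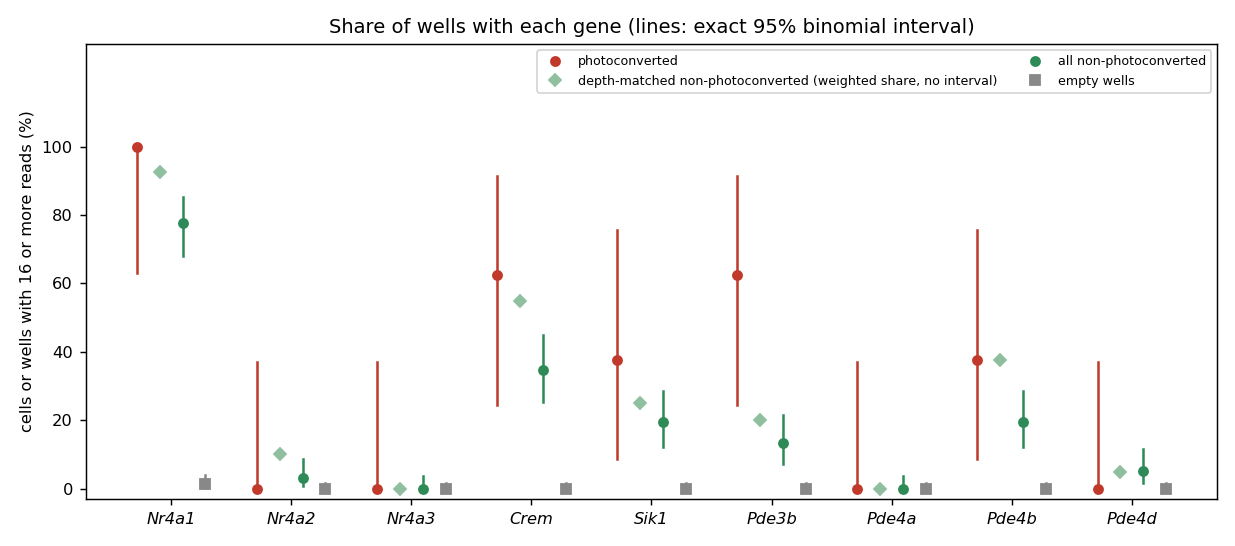
Share of cells or wells with 16 or more reads of each gene, in photoconverted cells, depth-matched non-photoconverted cells (diamonds, weighted, no interval), all non-photoconverted cells and empty wells of plate 1. Lines are exact 95% binomial intervals. The intervals of photoconverted cells for the 5 detected genes hold the depth-matched share except for Pde3b, where 20% lies below 24.5%. The depth-matched share rests on 29 distinct cells and has a spread of its own that is not drawn, so this is not a test.

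Between the colours, 1 of the 5 measured genes, Pde3b, was higher in photoconverted cells by 20 percentage points or more of depth-matched share, and 0 were lower by as much. Among all 3188 genes that passed the same filter, 18.7% were higher and 9.94% lower by this rule, so a count of 1 in 5 is close to the background. The median difference was 7.5 points over the 5 genes and 2.5 over all 3188. The number of the 9 genes detected per cell was 4, 2, 3, 5, 1, 4, 4 and 1 in photoconverted cells 1 to 8. It averaged 3 in photoconverted, 2.45 in depth-matched, 1.72 in all non-photoconverted cells and 0.0136 in empty wells. After drawing each cell down to 1000 reads, which left out 0 cells of either colour, the expected share with at least 1 read of Nr4a1 was 77.6% in photoconverted and 77.3% in depth-matched cells. The same measure gave 18.4% and 15.4% for Crem, 16.6% and 11.0% for Sik1, 8.12% and 4.63% for Pde3b, and 5.34% and 12.6% for Pde4b. With 8 photoconverted cells on 1 plate, the intervals of these shares are wide.

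Deeper cells more often held each of the 5 genes. In non-photoconverted cells of low, middle and high depth (502 to 1194, 1220 to 2026 and 2067 to 4480 genes), Nr4a1 was detected in 60.6%, 78.8% and 93.8% of the cells. Crem was detected in 9.09%, 45.5% and 50%, Sik1 in 9.09%, 15.2% and 34.4%, Pde4b in 6.06%, 15.2% and 37.5%, and Pde3b in 3.03%, 12.1% and 25%. Over all 3188 genes the median share was 6.06%, 15.2% and 31.3%. Drawn down to 1000 reads, Crem stood at 6.81%, 18.3% and 13.9%, and Pde3b at 4.49%, 6.12% and 6.31%. Nr4a1 stood at 54.2%, 69.6% and 78.4% on the same measure.

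**Figure D3:**
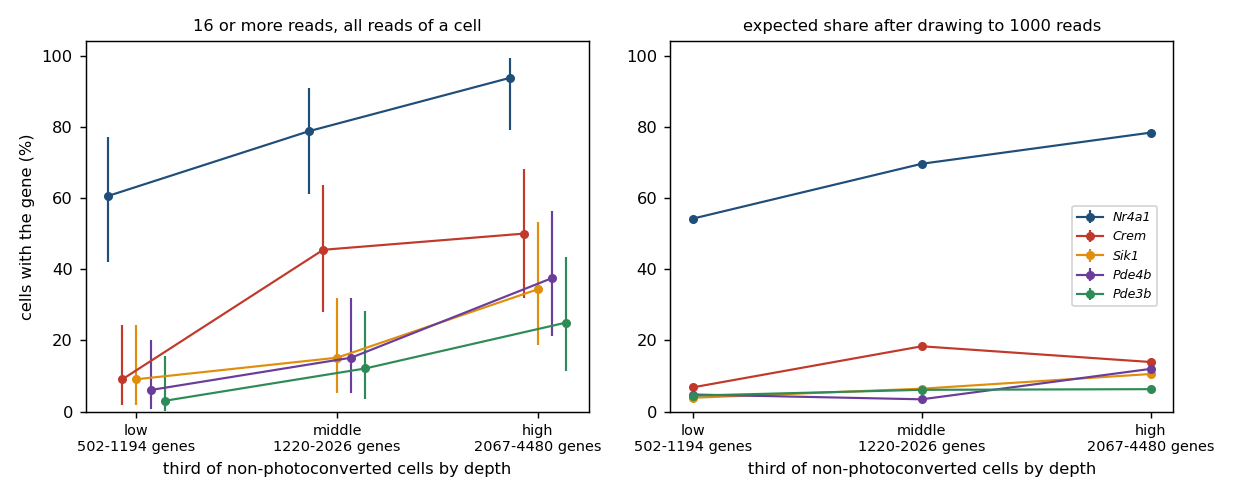
Share of non-photoconverted cells with each of the 5 detected genes, in low, middle and high depth classes by number of genes (33, 33 and 32 cells). The left panel counts 16 or more reads, with exact 95% binomial intervals, and the right panel gives the expected share after drawing each cell to 1000 reads. Nr4a1 lies above the other 4 genes in each class of both panels.

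Within the non-photoconverted cells, Nr4a1, Crem and Sik1 were found together more often than in depth-matched cells in 4 of their 6 ordered pairs by 20 percentage points or more. For each gene, cells with it were set beside the 3 nearest cells in number of genes without it. Cells called without a gene include those with 1 to 15 reads of it. These were 15 of 22 for Nr4a1, 16 of 64 for Crem, 22 of 79 for Sik1, 18 of 85 for Pde3b and 10 of 79 for Pde4b. Crem was detected in 32 of 76 cells with Nr4a1 (42.1%, 30.9 to 54.0%) and in 7.89% of matched cells without Nr4a1, a difference of 34.2 percentage points. Sik1 was detected in 18 of the 76 (23.7%, 14.7 to 34.8%) and in 2.19% of the matched cells. In the other direction, Nr4a1 was detected in 32 of 34 cells with Crem (94.1%, 80.3 to 99.3%) and in 71.6% of matched cells without Crem. Crem was detected in 11 of 19 cells with Sik1 (57.9%, 33.5 to 79.7%) and in 36.8% of matched cells without Sik1, and Sik1 in 32.4% of cells with Crem and in 13.7% of matched cells without it.

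Of the 20 ordered pairs of the 5 genes, 4 differed by 20 points or more, all upwards and all among Nr4a1, Crem and Sik1, and 0 differed downwards by as much. The share of all genes that stood 20 points or more higher was 8.47% beside Nr4a1, 7.47% beside Crem, 4.99% beside Sik1, 9.26% beside Pde3b and 7.56% beside Pde4b. The share at least 20 points lower was 4.99%, 2.76%, 3.33%, 8.85% and 5.52%, in the same order of genes. In the 14 pairs with a phosphodiesterase the differences lay between -10.3 and 7.02 points. Pde3b and Pde4b shared 3 cells, of 13 and 19 cells with them. The count of 4 pairs was 1 with detection at 64 reads, where 12 pairs could be measured, 2 at 1 read, where 16 could be measured, and 2 at 4 reads.

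**Figure D4:**
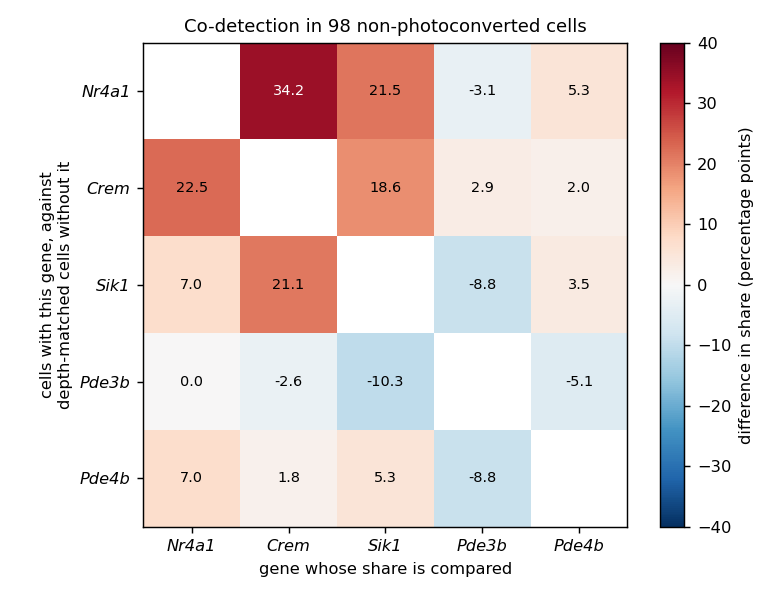
Difference in percentage points between the share of non-photoconverted cells with the column gene among cells with the row gene and among depth-matched cells without the row gene. The 6 cells of the map among Nr4a1, Crem and Sik1 run from 7.0 to 34.2, and those with Pde3b or Pde4b from -10.3 to 7.0.

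Several other targets of CREB and other immediate early genes were also detected more often in cells with Nr4a1. Of 12 measured other CREB targets, 8 were detected in a share at least 20 points higher in cells with Nr4a1 than in matched cells without it, and 1 (Mcl1, which opposes cell death) in a share at least 20 points lower. Of 9 measured other immediate early genes, 6 were higher and 1 (Klf4) lower by this rule. These lists are not separate in kind, since some genes on the CREB list, among them Fos, Fosb and Junb, are also immediate early genes. Whether CREB or another stimulus lay behind either count was not tested. Of 8 heat shock genes, 0 were higher and 1 (Hsph1) lower. The part of tissue dissociation in the values of any of these lists was not tested. Among all genes 8.47% were higher and 4.99% lower by this rule. The median difference was 29.6 points for the CREB targets, 33.8 for the immediate early genes and -3.95 for the heat shock genes, beside 4.82 over all genes.

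Dusp1, a phosphatase that shuts off MAP kinases, was detected in 59 of 76 cells with Nr4a1 (77.6%) and in 14.0% of matched cells. Fos, a part of the AP-1 factor, stood at 69.7% and 10.1%, and Areg, which encodes the growth factor amphiregulin, at 76.3% and 18.4%. Junb, another AP-1 part, stood at 97.4% and 69.7%, and Btg2, an antiproliferative gene, at 88.2% and 42.1%. Among the immediate early genes, Zfp36, whose product binds and destabilises cytokine messages, stood at 96.1% and 43.4%, Ier2 at 64.5% and 10.5%, Jund at 76.3% and 33.3%, and Jun at 55.3% and 21.5%. The heat shock genes Hspa8, Hsp90ab1 and Dnaja1, all chaperones or their partners, stood at 85.5% and 90.4%, at 77.6% and 83.3%, and at 76.3% and 78.5%. With 90.4% and 83.3% in the matched cells, Hspa8 and Hsp90ab1 had no room for a difference of 20 points upwards, and Dnaja1 had little.

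The cells without Nr4a1 also held fewer ILC2 markers. Areg is both on the list of ILC2 markers and on that of CREB targets, so the 2 lists are not fully separate. At least 3 markers were detected in 72 of 76 cells with Nr4a1 and in 10 of 22 without it, and the median number was 7.5 in cells with it, 4 in the matched cells and 2 in all cells without it. The part of this difference in the values above was not tested. When only cells with 3 or more ILC2 markers were used (72 with and 10 without Nr4a1), 8 of 12 CREB targets, 6 of 9 immediate early genes and 0 of 8 heat shock genes were 20 points or more higher, beside 12.0% of all genes. Crem then stood at 44.4% and 6.02%, and Fos at 70.8% and 9.26%. In the other direction, Nr4a1 stood at 97.0% in cells with Crem and 81.8% in matched cells without it. That difference of 15.2 points no longer passed 20. The cells matched to those with Nr4a1 had the weight of 10.7 equal cells, and of 6.99 among the cells with 3 or more ILC2 markers.

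**Figure D5:**
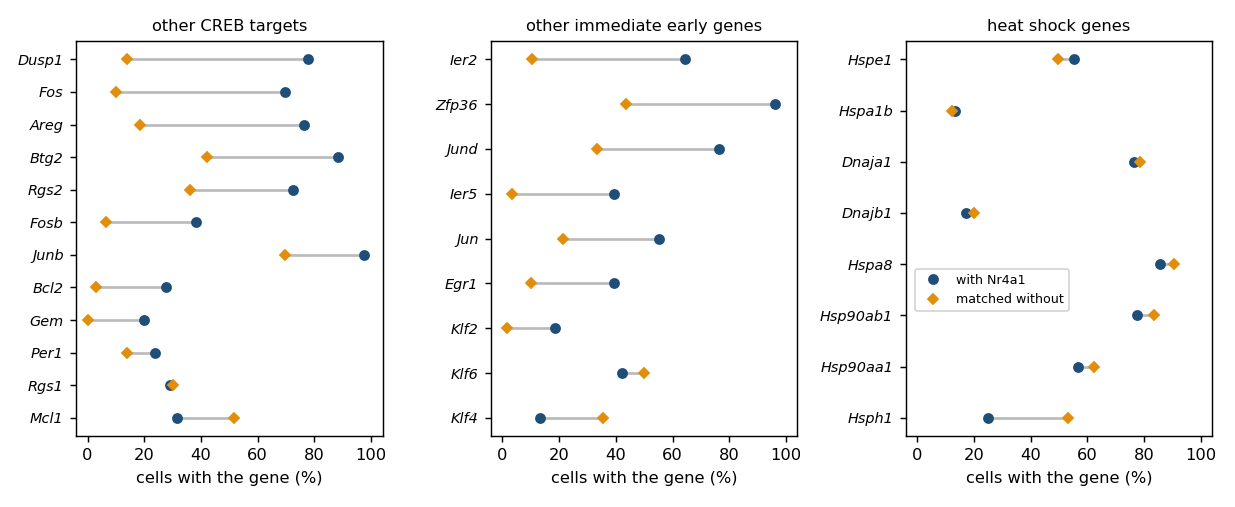
Share of non-photoconverted cells with other CREB targets, other immediate early genes and heat shock genes, in cells with Nr4a1 (blue, 76 cells) and in depth-matched cells without Nr4a1 (orange, drawn from 22 cells). The widest gap is at Dusp1 (77.6% and 14.0%), while the 8 heat shock genes lie close together except for Hsph1 (25% and 53.1%).

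Fewer of these genes passed 20 points beside Crem and Sik1. Among all genes, the share at least 20 points higher was 7.47% beside Crem and 4.99% beside Sik1. It was 9.26% beside Pde3b, which only 13 cells had, and 7.56% beside Pde4b. Of the 12 CREB targets, 4 were 20 points or more higher in cells with Crem: Areg (85.3% against 49.0%), Gem (35.3% against 0%), Rgs2 (85.3% against 51.0%) and Dusp1 (85.3% against 60.8%). Gem encodes a small GTP-binding protein and Rgs2 a brake on G protein signals. Of the 9 immediate early genes, 2 were higher, Egr1 (50% against 11.8%) and Jund (91.2% against 61.8%), while Fos stood at 67.6% in both. Beside Sik1, 2 of the CREB targets were higher, Fosb (68.4% against 29.8%) and Dusp1 (89.5% against 59.6%), and 1 of the immediate early genes, Egr1 (63.2% against 35.1%). Beside Pde3b, 0 of the 12 CREB targets and 3 of the 9 immediate early genes were higher by 20 points, namely Ier5 (61.5% against 35.9%), Klf2 (30.8% against 7.69%) and Klf4 (30.8% against 5.13%). Beside Pde4b, 0 of either list were. With detection at 1 read, the counts beside Crem and beside Sik1 were 0 for both lists, and those beside Pde3b were 1 CREB target and 0 immediate early genes.

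The genes whose level across the 98 non-photoconverted cells was most like that of Nr4a1 were Nfkbia (Spearman rho 0.53 after removing the part that follows the number of genes), Tnfaip3 (0.50) and Junb (0.46), among 755 genes detected in at least 25% of the cells. Nfkbia and Tnfaip3 encode inhibitors of NF-kB signalling. For Crem they were Fosl2 (0.41), an AP-1 part, Samsn1 (0.40), an adaptor, and Dgat1 (0.38), an enzyme of triglyceride synthesis. The rho between Nr4a1 and Crem was 0.21, which ranked 71st for Nr4a1 and 42nd for Crem. The median rho over all genes was 0.0022 for Nr4a1 and 0.02 for Crem. All points come from 1 plate and share its libraries.

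Upstream of these genes, 13 of 18 listed receptors that couple to Gs and their partners had a row, and 4 were measured in enough cells. Ptgir, the prostacyclin receptor, was detected in 5 of 8 photoconverted cells, 40% of depth-matched and 31.6% of all non-photoconverted cells. Ramp3 and Ramp1, partners of the calcitonin receptor-like receptor, were detected in 5 and 4 of 8 photoconverted cells, in 30% and 37.5% of depth-matched cells and in 27.6% and 21.4% of all non-photoconverted cells. Of the 4 measured genes of this list, 2 (Ptgir and Ramp3) were at least 20 points higher in photoconverted than in depth-matched cells. Among these 4 the number lower by as much was 0, but the filter on pooled cells shaped that count. Ptger4, left out by it, was detected in 0 of 8 photoconverted and 22.5% of depth-matched cells. Calcrl, also left out, was detected in 4 of 8 and 25%. Adora2a and Ptger4 were each detected in 9 non-photoconverted cells, and Adora2a passed through its 2 photoconverted cells. Among all genes 18.7% were higher and 9.94% lower, and 4 genes are few to set beside such shares.

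Of 19 genes with a row for cyclic AMP production and protein kinase A, 11 were measured in enough cells, and 3 with high levels are given first. Gnas, which encodes the Gs alpha subunit, was detected in 7 of 8 photoconverted cells, in 97.5% of depth-matched and in 86.7% of all non-photoconverted cells. Gnai2, an inhibitory alpha subunit, was detected in 6 of 8, 87.5% and 56.1%, and Prkar1a, the main regulatory subunit of protein kinase A, in 6 of 8, 92.5% and 60.2%. The adenylyl cyclase gene Adcy7 was detected in 16.3% of all non-photoconverted cells and Prkaca, a catalytic subunit of protein kinase A, in 13.3%, while Adcy3, Adcy6 and Adcy9 were detected in 0% to 2.04%. Of 11 measured genes of this list, 1 was at least 20 points higher in photoconverted than in depth-matched cells and 0 lower. The gene was Prkacb, another catalytic subunit (5 of 8 against 37.5%). Among all genes 18.7% were higher and 9.94% lower by this rule. CREB and its coactivators were detected in fewer cells: Creb1 in 1 of 8, 25% and 18.4%, Sik3 in 2 of 8, 30% and 17.3%, and Ep300 in 2 of 8, 25% and 16.3%, with 0 of 7 measured genes past 20 points in either direction.

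Between the colours, few of the other CREB targets differed by 20 points. Of 12 measured, 1 (Mcl1, 7 of 8 against 52.5%) was at least 20 points higher in photoconverted than in depth-matched cells and 1 (Fos, 5 of 8 against 85%) lower, beside 18.7% and 9.94% of all genes. By any amount, 9 of the 12 were higher and 3 lower. Of 9 other immediate early genes, 2 (Egr1, 5 of 8 against 42.5%, and Ier5, 6 of 8 against 47.5%) were higher and 0 lower. Of 8 heat shock genes, 0 passed in either direction. The median difference was 7.5 points for the CREB targets, 7.5 for the immediate early genes and -1.25 for the heat shock genes. It was 31.3 for 6 measured effector products of ILC2, which include Cxcl2, Calca and Arg1. Of these 6, Il4 was detected in 9.18% of non-photoconverted cells and passed the 10% filter only through its 3 photoconverted cells. Il13, left out by the filter, was detected in 0 of 8 photoconverted and 20% of depth-matched cells, and Ccl1, also left out, in 1 of 8 and 0%.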

How the data were processed

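The authors deposited raw read counts for each gene in each well. Their sort record gives the colour and red fluorescence intensity of a well, per the file headers, and the intensity entered no result. Other deposited values were the well and colour names. Per the labels' protocols, libraries were made by SORT-seq, which builds on CEL-seq2. STAR, STARsolo and edgeR with mm10 are named, without version or role, per the submitters' processing notes. No correction for molecular identifiers is recorded in the sources used here.

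Python 3.11.15, numpy 2.4.6, scipy 1.17.1 and pandas 2.3.3 were used. Spike-in rows (78) were left out of gene counts and CPM, and mitochondrial rows (28) were kept. Genes entered a count of differences when detected in at least 10% of passing cells of both colours pooled. Differences of 20 percentage points or more were counted. The measures were tested on simulated data. Beside the 9 genes, the 3 members of each list with the highest mean CPM were named, and for Nr4a1 and Crem the 3 genes most alike. Other names, among them Mcl1, Fos, Egr1 and Gem, were added after their values were seen. The genes, lists and measures were chosen with earlier results of these data known. No test was run, since plate 1 is 1 sample. Coordinates are from GENCODE M21 (mm10). Some listed genes are not reported here. No promoter was printed for Crem, Sik1 or Pde3b.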

Additional observations from a re-analysis of the deposited data

How the results depend on the processing

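Of 431 values recomputed under alternatives, 381 stayed within set limits, 50 moved and 0 of the called differences changed sign. The limits were the binomial interval for shares, a factor of 1.5 for counts and levels, and the standard deviation for genes per cell. For shares of 8 photoconverted cells that interval is wide, so staying within it says little. The Sik1 difference, 12.5 points as reported, was -7.5 at 1 read and still counted as within. The number of genes higher by 20 points in photoconverted cells, 1 as reported, was 2 with detection at 4 reads, 3 against all non-photoconverted cells (where 44.8% of all genes were higher) and 0 after drawing down to 1000 reads (1.25% of all genes). Leaving out each photoconverted cell in turn gave 1 to 2 (2 without cell 3 or cell 5, where Sik1 also passed), and a median share difference of 2.86 to 11.4 points. The median log2 level ratio of the 5 genes, -0.09 as reported, was 0.30 against depth-matched cells and 0.82 with median CPM. It was -0.41 to 0.08 without single photoconverted cells. The count of pairs past 20 points, 4 as reported, was 2 with detection at 1 read, 2 at 4 reads, 1 at 64 reads and 2 with both colours. Among cells with 3 or more ILC2 markers, Nr4a1 in cells with Crem no longer passed (15.2 points). The cause of these moves was not tested. The counts beside Nr4a1 kept within 6 to 9 CREB targets and 4 to 7 immediate early genes over 10 alternatives, but could not be measured at 1 read, where fewer than 10 cells lacked Nr4a1. The restriction to cells with 3 or more ILC2 markers was chosen after seeing the data. No paired analysis was possible because plate 1 is the only sample with usable gene names. With detection at 1 read, the counts beside Crem fell to 0 CREB targets and 0 immediate early genes, against 4 and 2 as reported, and those beside Sik1 to 0 and 0, against 2 and 1. Depth limits detection of each gene, and 8 photoconverted cells limit each comparison of colours.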
